A study of Mus musculus with 27 samples.

Results

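Mouse embryo pools injected with siRNA against acetyltransferase genes fell on both sides of a line drawn at 500 CPM (counts scaled to 1000000 gene counts per library) of MERVL-int, the internal region of the endogenous retrovirus MERVL. Among the libraries of the siP300, siKat6b and siComb groups, those with at least 500 CPM of MERVL-int were called MERVL-high (siP300 2, siKat6b 1, siKat6b 3 and siComb 2). The other 5 were called MERVL-low (siP300 1, siP300 3, siKat6b 2, siComb 1 and siComb 3). These 9 libraries are 3 of the 9 groups and 9 of the 27 libraries of the series. All genes were compared between the sides with the siRNA group as a block. Because a measured value of the same libraries drew the line, the gene differences across it are descriptions and carry no test.

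All embryos were wildtype and grew in KSOM medium, and each library held a pool of 15 to 20 embryos collected as morulae at E2.75 (embryonic day). In the siRNA groups the embryos were injected into the cytoplasm at E0.5 with siControl, siP300, siKat6a, siKat6b or siComb, whose mixture the labels do not give. In the inhibitor groups they received Vehicle, SAHA (500 nM) or TSA (50 nM), which block histone deacetylases, or A485 (10 uM), which blocks the acetyltransferases p300 and CBP, from E2.5. Pools of a group are named biological replicates by the submitters without word of separate collection, so a p-value covers no more than the differences between these pools. A pool with fewer cells expressing a gene and a pool with less RNA per cell cannot be told apart in such bulk counts.

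MERVL is transcribed for a short window at the 2-cell stage of the mouse embryo, when the embryonic genome is first activated, and is then silenced. Its long terminal repeats serve as promoters for nearby genes, so that a set of cellular genes is expressed with it. The homeobox factor Dux activates MERVL and many of these genes, among them the Zscan4 cluster, and a small fraction of mouse embryonic stem cells passes through a state marked by the same RNAs. By the morula stage these genes are normally low.

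MERVL-int stood at 151, 915 and 158 CPM in siP300 1, 2 and 3, at 899, 35.0 and 946 in siKat6b and at 71.6, 990.2 and 61.8 in siComb. None of the 9 libraries lay between 158 and 899 CPM, the values just outside and just inside the line. The siControl libraries held 23.4, 32.8 and 21.2 CPM and the siKat6a libraries 20.4 to 44.3, so the lowest MERVL-low library, siKat6b 2, was close to the controls, whereas both low siP300 libraries were several-fold above them. Behind these levels stood 8371 to 9394 MERVL-int counts in the high libraries and 355 to 1898 in the low ones. The other MERVL row, MERVL_2A-int, whose relation to MERVL-int the labels do not give, stood at 32.6, 54.0 and 46.6 CPM in siP300, 46.9, 22.5 and 54.6 in siKat6b and 36.2, 45.2 and 30.2 in siComb. It was higher on the high side within each group, by 0.73 on the log2 scale (SE 0.19), and the range of the high libraries overlapped that of the low ones across groups.

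**Figure D1:**
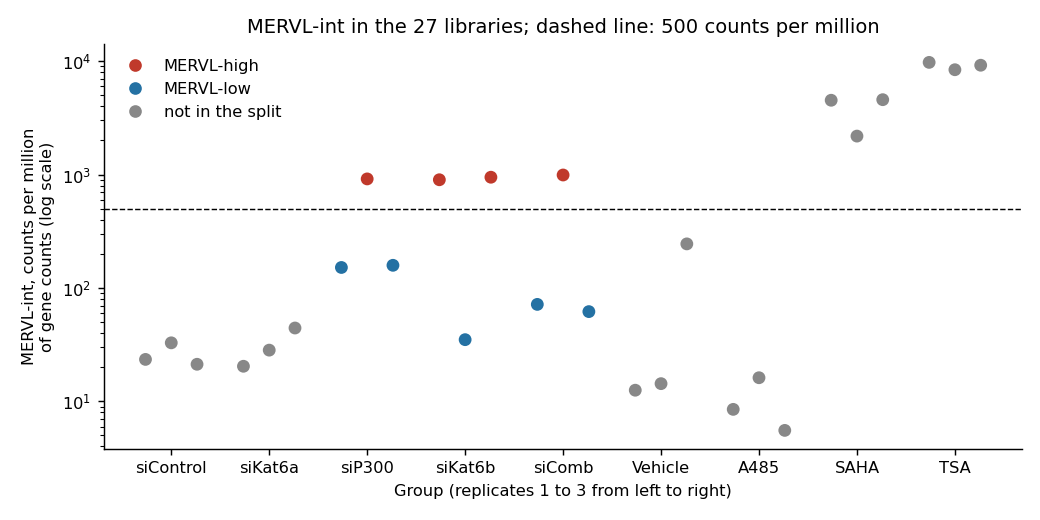
Each point is 1 of the 27 libraries, placed by group along the horizontal axis, and the vertical axis gives MERVL-int in CPM on a log scale, with a dashed line at 500. The 4 MERVL-high libraries sit between 899 and 990.2, the 5 MERVL-low libraries between 35.0 and 158, and the SAHA and TSA libraries between 2181 and 9742.

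The high library or libraries had the lowest total in each group: 9152919 counts in siP300 2, 9506529 and 9664207 in siKat6b 1 and 3 and 9486517 in siComb 2, against 9735977 to 11988857 in the low libraries. Mitochondrially encoded genes took 5.58, 4.94 and 6.99% of counts in siP300, 1.78, 2.26 and 2.42% in siKat6b and 5.41, 5.17 and 4.86% in siComb, and so did not follow the split. After thinning to the smallest total of the series, genes with at least 10 counts numbered 16460, 17018 and 17382 in siP300, 15262, 14841 and 15718 in siKat6b and 16004, 16516 and 15719 in siComb. The high libraries thus had more such genes than the low ones in siKat6b and siComb and lay between them in siP300. Markers of morula cells summed to 1099 to 1905 CPM in the high and 1091 to 1454 CPM in the low libraries, with 8 of 9 above the filter on low counts and Sox2 at 0 in all 9 libraries. The part of sequencing depth and of the number of genes detected in the differences below was not tested.

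The genes aimed at by the siRNAs were compared first. Ep300, which encodes p300, stood at 19.7, 12.9 and 35.9 CPM in siP300 and 28.5, 16.3 and 33.4 in siComb, against 22.0, 22.8 and 26.96 in siControl. The high library was the lowest of its group in both. While siP300 1, siP300 2 and siComb 2 lay below all siControl libraries, siP300 3, siComb 1 and siComb 3 lay above all of them. Against siControl, the log2 difference of Ep300 was -0.43 in siP300 (edgeR quasi-likelihood test, Benjamini-Hochberg adjusted p = 0.259). In siComb it was -0.15 (edgeR adjusted p = 0.722). Kat6b stood at 66.1, 79.6 and 82.5 CPM in siKat6b and 60.9, 34.6 and 88.3 in siComb, and also at 120.2, 56.4 and 104 in siP300, where it was not named as the target, against 97.5, 108 and 107 in siControl. Against siControl, the log2 difference of Kat6b was -0.56 in siKat6b (edgeR adjusted p = 0.495) and -1.03 in siComb (edgeR adjusted p = 0.00819). Kat6b was lower on the high side by 0.70 (SE 0.22) and Ep300 by 0.64 (SE 0.26) on the log2 scale, below the 2-fold rule used here. Neither gene was separated within every group. Kat6a stood at 10.5 to 27.3 CPM and Crebbp, which encodes the p300 relative CBP, at 112 to 216 CPM over the 9 libraries, with log2 differences of -0.14 and -0.21. The part of the knockdown itself in the split was not tested.

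Of 55367 gene rows, 18534 passed the filter on low counts. A gene could pass it through the high libraries alone, so shares of the passing genes of a list, family or run are descriptions. A gene was counted as higher where its fitted difference was at least 2-fold and, within each of the 3 groups, every high library lay above every low one, and as lower by the mirror of that rule. By it, 733 genes (3.95% of those tested) were higher and 196 (1.06%) were lower in the MERVL-high libraries. Dropping the 2-fold requirement gave 1385 higher (7.47%) and 1355 lower (7.31%), so the asymmetry lay in the large differences. The genes nearest the fold line were Gm19174 (log2 1.01) and Sco2 (1.00) inside it and Gm14342 and Cops6 (both 1.00 after rounding) outside it.

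The 733 higher genes are described here in depth. Their median log2 difference was 2.27, against -0.01 over all genes tested. At least 8-fold higher were 254 of them, 166 were between 4-fold and 8-fold and 313 between 2-fold and 4-fold. Most were scarce RNAs: 312 reached a mean of 10 CPM in the high libraries. For 579, every high library lay above every siControl library, whereas for 73 every low library did so too. Their median level was 2.13, 9.29 and 2.17 CPM in siP300, 3.997, 0.788 and 5.69 in siKat6b and 1.01, 7.17 and 1.03 in siComb, against 0.537 to 0.593 in siControl. The siKat6b 2 library was thus close to the controls and the low siP300 libraries were between the controls and the high libraries. Summed, the 733 genes took 0.968% of gene counts in siKat6b 1, 1.24% in siKat6b 3, 1.44% in siComb 2 and 1.88% in siP300 2, against 0.291 to 0.635% in the low libraries and 0.224 to 0.297% in siControl.

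**Figure D2:**
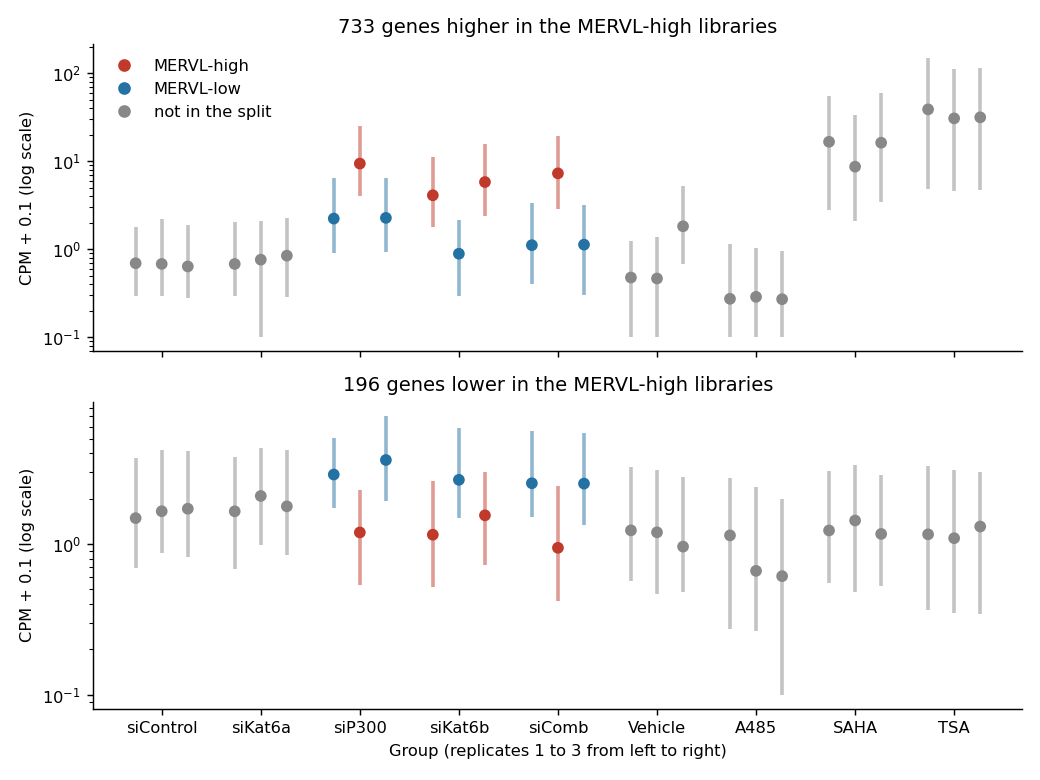
Points give the median and bars the quartiles of the level, in CPM plus 0.1 on a log scale, over the 733 higher genes (top) and the 196 lower genes (bottom) in each of the 27 libraries, by group. The 4 MERVL-high libraries lie above the low libraries of their own group in the top panel, as the rule required. Their medians there are 3.997 to 9.29, and TSA reaches medians of 30.5 to 38.6.

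Genes known from the 2-cell stage were among the higher genes. Of a list of 61 such genes, 57 had a row and 41 passed the filter. Of the 41, 28 were at least 2-fold higher by the rule above and none lower. Their median log2 difference was 3.96, and 39 of 41 were positive. Scarce genes could enter the 41 through the high libraries alone, so these counts are descriptions. The list names genes by their stage, and several of them are also in the runs of neighbouring genes given below. Summed over the list, the high libraries held 701 to 2647 CPM and the low libraries 234 to 748, with 219 to 241 in siControl. Both sides therefore overlapped slightly across groups.

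Zfp352, a zinc finger gene of retroposed origin that marks 2-cell embryos, stood at 18.4, 104 and 4.50 CPM in siP300, 39.3, 0 and 67.3 in siKat6b and 3.03, 146 and 3.49 in siComb. All 4 high libraries exceeded all 5 low ones, and the difference was 5.04 on the log2 scale (SE 0.64). The siControl libraries held at most 1.58 CPM of it. Pramef25, of the PRAME family, stood at 8.71, 54.5 and 1.42 CPM in siP300, 16.3, 0.788 and 26.4 in siKat6b and 0, 108 and 0.616 in siComb, a difference of 5.46 (SE 0.80). Here too every high library exceeded every low one, with siP300 1 the nearest below.

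The speckle-type POZ genes of the Spopfm and Tdpoz families are relatives of Spop, a substrate adaptor of a cullin ubiquitin ligase, and were higher in 8 of 10 members that passed the filter. Spopfm1 stood at 5.78, 26.9 and 2.84 CPM in siP300, 6.42, 0 and 14.9 in siKat6b and 0.405, 58.5 and 0.616 in siComb (log2 5.22, SE 0.73). Spopfm3 differed by 4.82 (SE 0.72) and Tdpoz4 by 4.82 (SE 0.86), with the same libraries high. Tdpoz3 was at 0 in all 5 low libraries and at 4.15, 1.05, 3.83 and 13.6 CPM in siP300 2, siKat6b 1, siKat6b 3 and siComb 2. It was at least 97.4-fold higher on the high side, taking 3 counts over the 5 low libraries as the floor. Most nonzero counts of the series were even, so this floor could be too low and the bound too high. Olfr450, an olfactory receptor gene, was the other member at 0 in all low libraries and was at least 42.8-fold higher by the same floor, which covers counting error only.

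The Usp17l family encodes deubiquitinating enzymes, and 4 of its 5 genes were higher. Usp17lb stood at 9.73, 109.8 and 1.92 CPM in siP300, 5.996, 4.04 and 46.8 in siKat6b and 3.84, 184 and 0.616 in siComb (log2 4.53, SE 0.75). Here siKat6b 1 was below siP300 1, so that the sides separated within groups and not across them. Usp17le (log2 4.53, SE 1.01) and Usp17la (4.46, SE 0.73) rested mostly on siComb 2, with 56.2 and 48.3 CPM there and at most 3.93 in each of the other 8 libraries. Without siComb 2 their differences were 1.89 and 2.80.

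Zscan4 genes, which act on telomeres and genome stability in stem cells and are the best known RNAs of the Dux programme, passed the filter in 2 of 6 members, and neither passed the rule because siKat6b 1 stayed below siKat6b 2. Zscan4d stood at 0.203, 18.8 and 0.834 CPM in siP300, 0.631, 0.788 and 3.10 in siKat6b and 0.303, 172 and 1.85 in siComb (log2 5.60, SE 0.86, or 3.41 without siComb 2). Summed over its 6 genes the family reached 30.7 CPM in siP300 2, 1.58 in siKat6b 1, 5.79 in siKat6b 3 and 435 in siComb 2. The siControl libraries held 1.55 to 1.88 CPM, which siKat6b 1 did not exceed. Duxf3, the mouse Dux gene, had 2 counts in siP300 2, 2 in siComb 2 and 0 in the other 7 libraries, and 0 in all siControl and siKat6a libraries. Counts this low do not separate the sides at this depth. Dppa2, which acts upstream of Dux, stood at 1260.3, 1312 and 577 CPM in siP300, 971, 621 and 925 in siKat6b and 861, 523 and 541 in siComb, with the high library lowest in siComb.

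**Figure D3:**
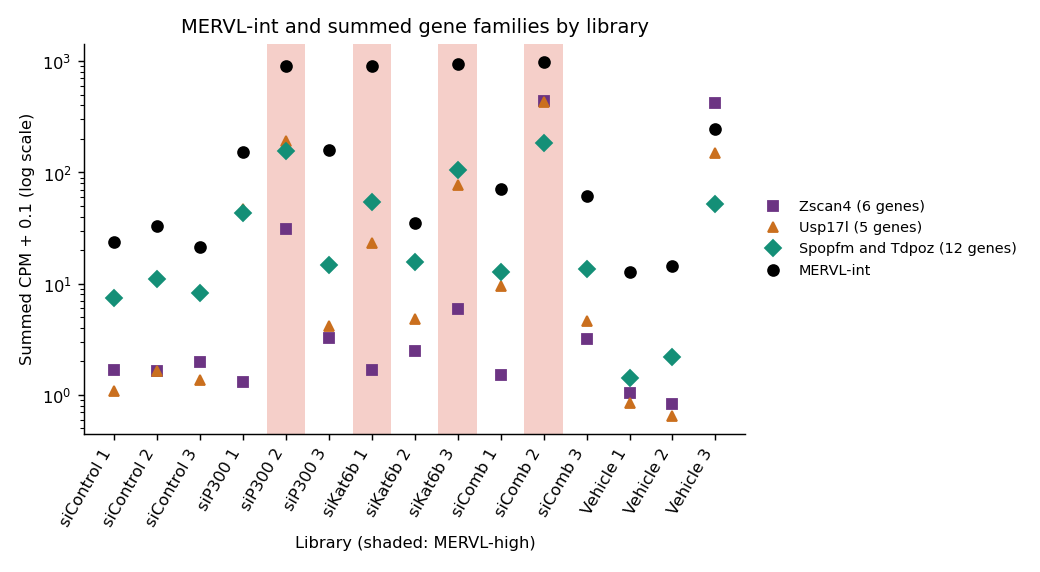
Symbols give MERVL-int and the summed levels of 3 gene families, in CPM plus 0.1 on a log scale, for each siControl, siP300, siKat6b, siComb and Vehicle library, with the 4 MERVL-high libraries shaded. In the shaded libraries, which were chosen by MERVL-int (899 to 990.2), Zscan4 runs from 1.58 to 435, and Vehicle 3 stands out of its group with 420 for Zscan4.

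Other genes that are silent in most early embryo cells were among the largest differences. Olfr881, an olfactory receptor gene, stood at 43.0 CPM in siP300 2, 3.997 and 5.59 in siKat6b 1 and 3 and 20.6 in siComb 2, and at most 0.205 in the 5 low libraries (log2 7.49, SE 0.68). Of 1117 olfactory receptor rows, 23 passed the filter and 8 of these were higher. Lmx1a, a homeobox gene known from midbrain dopamine neurons, stood at 0.405, 27.1 and 1.33 CPM in siP300, 14.3, 0.394 and 14.1 in siKat6b and 0.809, 22.8 and 0.822 in siComb (log2 4.98, SE 0.35), with the smallest standard error of the 15 genes named for the largest differences. Eif4a3l1, a copy of an RNA helicase gene, differed by 5.65 (SE 0.76), the immunoglobulin segment Ighv1-60 by 5.50 (SE 0.72) and Olfr376 by 5.20 (SE 0.64). The transporter gene Slc22a28 (4.99, SE 0.73), Skint6 (4.96, SE 0.59) and Trim75 (4.65, SE 0.53) completed the genes with the largest differences. All of these were chosen by a rule that required every high library to lie above every low library of its own group. That separation is therefore part of the choice and no result.

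Homeobox genes of the Obox family, expressed in oocytes and at genome activation, were higher in 4 of 5 members that passed the filter. Obox6 stood at 182, 492 and 8.01 CPM in siP300, 198, 49.9 and 167 in siKat6b and 66.5, 199 and 72.6 in siComb (log2 1.96). Obox8 stood at 42.8, 131 and 8.84, at 202, 17.9 and 212 and at 2.43, 145 and 1.44 CPM in the same order (log2 4.05). Both were about as high or higher in the MERVL-high siKat6b libraries as in siComb 2. The summed Zscan4 genes were not: they stood at 1.58 and 5.79 CPM in siKat6b 1 and 3, against 435 in siComb 2. Klf17, a Kruppel-like factor gene of the early embryo, stood at 17.2, 53.5 and 5.34 CPM in siP300, 44.6, 10.2 and 72.1 in siKat6b and 0.202, 23.0 and 3.49 in siComb (log2 2.79, SE 0.51). Tcstv1 and Tcstv3, a pair of 2-cell specific RNAs, were both higher, with log2 differences of 3.43 and 3.75. Tcstv1 stood at 1.42, 15.0 and 12.5 CPM in siP300, 1.26, 0.197 and 2.17 in siKat6b and 2.22, 58.0 and 1.23 in siComb. Its level in siP300 2 was thus close to siP300 3, which lay above both high siKat6b libraries. Obox6 and Obox8 were chosen for this account after their values were seen.

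Some of the 733 genes lay near each other. On GRCm38, the build called mm10, 704 had a single position, and 57 fell into 5 runs of at least 5 higher genes with gaps of at most 250 kb. How many genes of other sets fall into such runs was not counted. Each run begins and ends at a higher gene by definition, which raises the shares of tested genes given here, so they are descriptions. The run at chr12:87494721-88324026 held 17 of its 22 tested genes, several of them copies of an Eif1a-like gene, among them Gm8300 at 72.2, 110.5 and 11.6 CPM in siP300, 44.7, 2.76 and 94.7 in siKat6b and 0.910, 164 and 5.75 in siComb. The run at chr13:119827961-120318178 held 13 of 13 tested genes, including Tcstv1, Tcstv3, AF067061 and B020031M17Rik. The run at chr3:93628640-94347352 held 13 of 17, with Tdpoz1, Tdpoz3 and Tdpoz4. The Obox cluster at chr7:14634039-15839678 held 9 of 11, and the Rhox cluster at chrX:37244976-37829857 held 5 of 10, with Rhox6, a placental homeobox gene, at 6.08, 91.3 and 15.3 CPM in siP300, 9.89, 1.18 and 4.14 in siKat6b and 21.6, 78.8 and 62.9 in siComb. Copies in such runs share sequence, so that reads may be split or counted in the wrong copy and single values are uncertain.

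By gene type, 57.9% of the 706 higher genes with an annotation were protein coding, against 80.2% of the 18091 annotated genes tested. Long intergenic RNAs made up 18.3% (4.90% of those tested), processed pseudogenes 6.94% (2.94%) and unprocessed pseudogenes 4.96% (0.702%). Symbols of the Gm model type numbered 274 and of the Rik type 63. The strand setting of the counting is not given in the sources used here, so antisense and overlapping genes cannot be told apart from their partners. The part of repeat sequence inside these gene models in their counts was not tested.

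Promoter sequences were looked at because MERVL repeats and Dux sites drive part of the 2-cell genes. RefSeq's promoter table (GRCm38.p6) had an entry for 383 of the 733 higher and 100 of the 196 lower genes, and the 250 bases before the start were searched on both strands. The letters GATTNAATC, from the core of the known Dux motif, were found in 7 of 383 higher genes (1.83%), 0 of 100 lower genes and 70 of all 27025 promoters (0.259%). The longer form of this core, with a T before it and an A after it, was in 0 of 383 higher genes, 0 of 100 lower genes and 10 of 27025 promoters (0.0370%). A stretch of 12 letters, ACACACCTTTAA, was picked by scanning the promoters of these members, so its frequency among them is a description only. It was found in 13 of 383 (3.39%), 0 of 100 and 39 of 27025 (0.144%). Both the core and the stretch were in 6 of 383 (1.57%) and 20 of 27025 promoters, and the stretch was shared by Zfp352, AF067061, Eif4a3l1, Spopfm2, Tdpoz1, Tdpoz8 and Tdpoz9. The 4 promoters below, 3 with both and Zfp352 with repeated copies of the stretch alone, are shown 5′ to 3′ on the strand of the gene. Capitals mark GATTNAATC and the stretch on either strand.
Eif4a3l1, chr6:136327289-136327538, plus strand: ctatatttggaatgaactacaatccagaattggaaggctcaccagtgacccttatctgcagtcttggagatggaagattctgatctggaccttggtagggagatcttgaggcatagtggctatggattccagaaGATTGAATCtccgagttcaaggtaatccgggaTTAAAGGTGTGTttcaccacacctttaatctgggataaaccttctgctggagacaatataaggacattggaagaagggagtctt
Gm12724, chr4:106236872-106237121, plus strand: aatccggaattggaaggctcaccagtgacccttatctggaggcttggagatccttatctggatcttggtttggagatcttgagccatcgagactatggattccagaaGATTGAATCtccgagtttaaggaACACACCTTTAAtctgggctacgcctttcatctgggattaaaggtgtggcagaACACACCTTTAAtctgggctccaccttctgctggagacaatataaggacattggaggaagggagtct
AF067061, chr13:120262845-120263094, plus strand: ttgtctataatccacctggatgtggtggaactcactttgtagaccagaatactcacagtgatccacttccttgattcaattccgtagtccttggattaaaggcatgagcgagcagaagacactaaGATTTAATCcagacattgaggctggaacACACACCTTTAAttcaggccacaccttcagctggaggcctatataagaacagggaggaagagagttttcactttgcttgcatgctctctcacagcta
Zfp352, chr4:90218570-90218819, plus strand: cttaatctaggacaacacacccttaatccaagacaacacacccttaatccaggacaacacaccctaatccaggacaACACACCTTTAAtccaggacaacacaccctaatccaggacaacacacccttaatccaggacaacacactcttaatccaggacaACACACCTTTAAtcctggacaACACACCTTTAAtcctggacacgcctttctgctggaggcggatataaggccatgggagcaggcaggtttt
A match describes the letters in the window and no more. These promoters were picked from the higher genes, so higher levels of their RNAs on the high side follow from the choice. AF067061 stood at 0.811, 21.9 and 1.42 CPM in siP300, 6.52, 0 and 1.14 in siKat6b and 2.63, 48.9 and 0 in siComb (log2 5.02, SE 0.77). Its level in siKat6b 3 thus lay below those in siP300 3 and siComb 1. Eif4a3l1 stood at 1.82, 20.1 and 0.167, at 11.99, 0 and 6.42 and at 0.607, 24.9 and 0 in the same order.

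The higher genes also varied among the 4 MERVL-high libraries. Across the 733 genes the highest of the 4 was a median of 3.19-fold above the lowest, 248 genes spanned more than 4-fold and 53 more than 10-fold. As most of these genes are scarce, counting error enters this spread, and its part was not tested. The siP300 2 library was the highest of the 4 for 375 genes, siComb 2 for 187, siKat6b 3 for 112 and siKat6b 1 for 59. Every high library lay above every low library of any group for 292 of the 733. Within a group, the median log2 ratio of high to low, with 0.5 CPM added, was 1.503 in siP300, 1.86 in siKat6b and 1.69 in siComb.

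Whether the same genes respond to an independent treatment can be asked in the inhibitor groups, which took no part in the split. A gene rose or fell there where the p of edgeR's quasi-likelihood test, adjusted over all genes by Benjamini-Hochberg, was under 0.05. SAHA and TSA were each compared with the same 3 Vehicle libraries, so their results are set side by side and are not independent. Of the 733 genes, 680 passed the filter in these libraries, which a gene could do through the treated libraries alone, so that shares over the 680 are descriptions. With SAHA 532 of the 680 rose (78.2%), against 20.2% of the 18297 genes tested, and 6 fell, against 14.0%. With TSA 586 rose (86.2%), against 31.6%, and 16 fell, against 26.6%. The median log2 change was 4.24 with SAHA and 5.66 with TSA, against 0.06 and 0.08 over all genes, and 4.15 and 5.58 with the 19 genes at 0 in all Vehicle libraries set to their bound. The genes at least 8-fold higher in the MERVL-high pools rose in 236 of 249 with SAHA and 245 of 249 with TSA, those between 4-fold and 8-fold in 130 and 141 of 149 and those between 2-fold and 4-fold in 166 and 200 of 282. All members that fell, 6 with SAHA and 16 with TSA, were in the last of these classes.

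**Figure D4:**
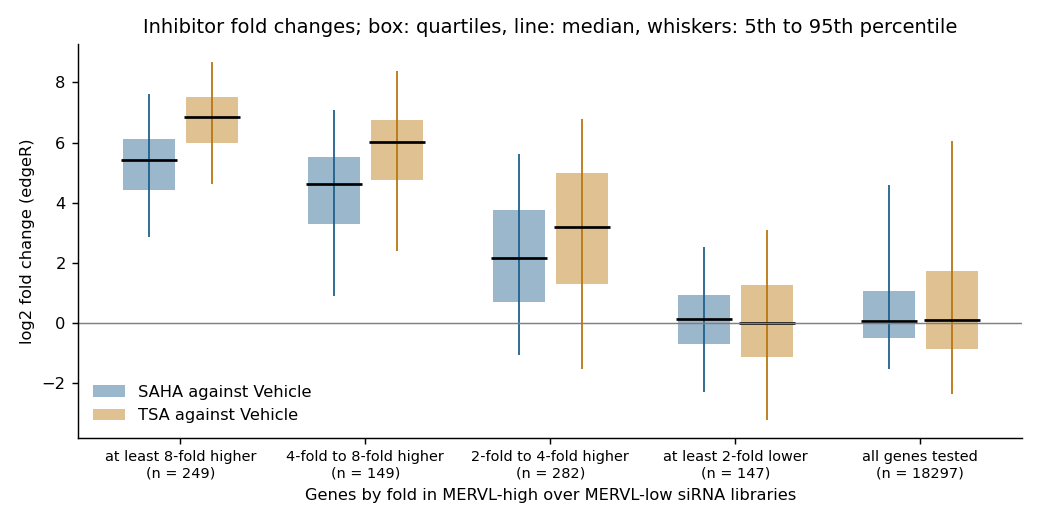
Boxes give the quartiles, lines the median and whiskers the 5th to 95th percentile of the edgeR log2 fold change with SAHA or TSA against Vehicle, for genes sorted by their fold between MERVL-high and MERVL-low siRNA libraries and for all genes tested. The medians with SAHA are 5.42, 4.63 and 2.15 for the genes at least 8-fold, 4-fold to 8-fold and 2-fold to 4-fold higher, 0.12 for the lower genes and 0.06 for all genes.

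MERVL-int and the summed share of the 733 genes were above those of the MERVL-high siRNA pools in every SAHA and TSA library, whereas some single genes were not, among them Obox6 and Obox8 given below. MERVL-int reached 4517, 2181 and 4569 CPM with SAHA (edgeR log2 5.38, SE 0.96, adjusted p = 0.00073) and 9742, 8393 and 9195 with TSA (6.72, SE 1.02, adjusted p = 7.3e-05), against 12.5, 14.3 and 245 with Vehicle. The 733 genes took 3.33 to 5.92% of counts with SAHA and 10.97 to 12.3% with TSA. Zfp352 reached 492, 154 and 529 CPM with SAHA (edgeR log2 4.98, SE 1.19, adjusted p = 0.00522) and 1720.4, 924 and 1566 with TSA (6.88, SE 1.29, adjusted p = 0.000425). Every treated library was above every Vehicle library. Pramef25 rose by 6.61 with SAHA (SE 1.17, edgeR adjusted p = 0.000659) and 8.42 with TSA (SE 1.26, adjusted p = 6.08e-05). Trim75, which stayed at 0, 0 and 0.956 CPM with Vehicle, reached 68.2, 57.6 and 82.6 with SAHA (7.75, SE 0.81, edgeR adjusted p = 8.6e-06) and 92.0, 160.3 and 86.1 with TSA (8.52, SE 0.82, adjusted p = 1.17e-06). Zscan4d, near its control level in siKat6b 1, reached 1676, 1204 and 2072 CPM with SAHA (5.20, SE 1.34, edgeR adjusted p = 0.00828) and 5169, 4489 and 7369 with TSA (7.05, SE 1.46, adjusted p = 0.00091). Duxf3 had 28, 32 and 31 counts with SAHA and 124, 281 and 163 with TSA, and 0 in the 3 Vehicle libraries.

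The counts by gene group that follow stand beside 20.2% of all genes tested that rose with SAHA and 31.6% with TSA. Apart from the 2-cell list, these groups are parts of the 733 higher genes. Of the tested members 78.2% rose with SAHA and 86.2% with TSA, the nearer base for such groups. Of the 52 tested genes of the 2-cell list, 50 rose with SAHA and 51 with TSA. As for the members above, a gene could pass the filter through the treated libraries alone, so these counts are descriptions. All 4 higher Usp17l genes and all 8 higher Spopfm and Tdpoz genes rose with both. The SAHA result for Spopfm1 was less secure: its log2 change of 3.70 (edgeR adjusted p = 0.0256) did not pass with DESeq2 (adjusted p = 0.208) or without SAHA 1 or SAHA 3, while TSA gave 5.40 (edgeR adjusted p = 0.00243). Spopfm3 rose by 4.10 with SAHA (edgeR adjusted p = 0.00293) and did not pass with DESeq2 (adjusted p = 0.0743). Of the 8 olfactory receptor genes, 7 rose with SAHA and 8 with TSA. In the runs of neighbours, 17 of 17 genes on chromosome 12 and 13 of 13 on chromosome 13 rose with each inhibitor, and 12 of 13 on chromosome 3. All 14 higher genes whose promoter held the Dux core or the stretch of 12 letters rose with each. That count is a description only, because the stretch was picked from promoters of the higher genes.

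Not all of the higher genes passed the test. In the Obox run, 6 of 9 genes rose with SAHA and 7 with TSA. Obox6 stood at 18.8, 74.5 and 63.9 CPM with Vehicle, 60.8, 68.9 and 92.8 with SAHA and 36.0, 53.3 and 85.3 with TSA, so the groups overlapped (edgeR log2 0.51, adjusted p = 0.366, and 0.24, adjusted p = 0.642). The TSA value turned to -0.18 without Vehicle 1 and -0.17 without TSA 3. Obox8 stood at 0.189, 0 and 3.44 CPM with Vehicle, 0.452, 0 and 15.1 with SAHA and 3.97, 8.19 and 5.30 with TSA (edgeR log2 2.13, adjusted p = 0.292, and 2.34, adjusted p = 0.198). Its values hung on single libraries: without Vehicle 3 it rose with both (edgeR adjusted p = 0.0392 and 0.0193), and without SAHA 3 the SAHA value was -2.45. B020004C17Rik, one of the most abundant higher genes, stood at 66.0, 644 and 0 CPM in siP300, 73.9, 4.93 and 383 in siKat6b and 17.8, 167 and 0.205 in siComb (log2 4.64). It held 0.189, 0.365 and 51.3 CPM with Vehicle, 52.0, 7.03 and 29.8 with SAHA and 347, 177 and 112 with TSA. Vehicle 3 was thus level with the SAHA libraries. The SAHA change of 0.78 (edgeR adjusted p = 0.631) became 6.73 without Vehicle 3 (edgeR adjusted p = 0.000143), and the TSA change was 3.68 (edgeR adjusted p = 0.0194), a call lost without TSA 1 (adjusted p = 0.0603). The genes that fell were few. Thap3, a zinc finger gene, stood at 9.62, 10.9 and 8.61 CPM with Vehicle, 2.49, 3.04 and 1.92 with SAHA and 0.529, 0.248 and 0.362 with TSA. It fell by 1.96 with SAHA (edgeR adjusted p = 0.000574) and by 4.56 with TSA (adjusted p = 9.04e-07). Nt5c, a nucleotidase gene, fell by 1.86 (edgeR adjusted p = 2.97e-05) and by 3.04 (adjusted p = 2.06e-07). In the siRNA pools Thap3 was 1.06 and Nt5c 1.04 higher on the log2 scale, near the fold line. The genes of this paragraph were chosen after their values were seen.

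Among the Vehicle libraries, Vehicle 3 stood apart in the same genes. Its MERVL-int was 245 CPM against 12.5 and 14.3 in Vehicle 1 and 2, and 326 of the 680 tested members (47.9%) were above both other Vehicle libraries and at least 2-fold above their mean, against 4.46% of all 18297 genes. This is 1 library and carries no test. In Vehicle 3 the Zscan4 family summed to 420 CPM and Usp17l to 149. This library enters every inhibitor test. Without Vehicle 3, 698 members passed the filter, of which 538 rose with SAHA and 591 with TSA. Their median log2 change was then 5.55 with SAHA, against 4.24 with all 3 Vehicle libraries, and 6.95 with TSA, against 5.66. MERVL-int changed by 8.18 and 9.52 on the log2 scale in that fit, and Zscan4d by 11.56 and 13.40, so the sizes of the inhibitor changes given here depend on Vehicle 3. Tcstv1, for one, stood at 0.377, 0.182 and 28.4 CPM in Vehicle 1, 2 and 3. The A485 libraries were at the other end, with 5.55 to 16.2 CPM of MERVL-int and a median of 0.171 to 0.188 CPM over the 733 genes.

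siKat6a against siControl gave no call by edgeR among the 733 genes (0% of the 19180 genes tested), while 10 of the 733 and 409 of all genes had an unadjusted p under 0.05 and DESeq2 called 1 gene in all. The median log2 difference of the 733 genes was 0.10, and the siKat6a libraries had medians of 0.580 to 0.745 CPM over them.

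The labelled comparisons of the 3 split groups hold the MERVL-high libraries, so their values for the 733 genes are not independent of the split. Fits without those libraries are not independent of it either, because the rule required the low libraries to lie below the high ones of their group. In siP300 against siControl, 334 of the 733 rose (19.7% of all genes rose) and 6 fell (15.6% of all fell), with a median log2 of 2.74. Without the 4 MERVL-high libraries 206 of 656 tested rose (31.4%, against 17.6% of all genes) and 19 fell (2.90%, against 15.0%), with a median of 1.46. In siComb 209 of 733 rose (19.6% of all) and 12 fell (17.1%), with a median of 2.07. Without the high libraries 87 of 656 rose (13.3%, against 17.01% of all genes) and 29 fell (4.42%, against 15.0%), with a median of 0.42. In siKat6b none rose or fell by edgeR, against 0.0104% of all genes in each direction, although the median log2 was 2.26 and 388 of the 733 had an unadjusted p under 0.05, and DESeq2 called 237 genes in all. Without the high libraries siKat6b is a single library, assumed to vary like the others, and the median was 0.00. Over all genes the calls changed little: 3785 genes rose and 3001 fell with siP300, against 3741 and 3187 without the high libraries, and 5812 calls were shared with the same direction. For siComb these were 3760 and 3275 against 3619 and 3188, with 6061 shared. Scaled by library size alone, 76.9% of the siP300 calls were rises against 55.8% in the fit as used, and 70.3% against 53.4% for siComb, with shifts of the median gene from 0.13 to 0.45 and from 0.09 to 0.35.

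The 196 lower genes differed less. Their median log2 difference was -1.29, 7 were at least 8-fold lower and 25 reached a mean of 10 CPM in the low libraries. Their median level was 2.79, 1.09 and 3.50 CPM in siP300, 1.05, 2.56 and 1.45 in siKat6b and 2.43, 0.843 and 2.41 in siComb, against 1.38 to 1.61 in siControl. For 46 of them every low library was above every siControl library and for 29 every high library was below every siControl library. With SAHA 15 of the 147 tested rose (10.2%) and 16 fell (10.9%), and with TSA 27 rose and 27 fell (18.4% each), below the shares of all genes given above.

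Shroom3, an actin-binding protein of apical constriction, was the most abundant of the named lower genes, at 120.0, 25.8 and 95.8 CPM in siP300, 63.1, 106 and 70.1 in siKat6b and 34.8, 17.7 and 73.1 in siComb, against 99.2 to 126 in siControl (log2 -1.41, SE 0.29). It fell by 1.92 with SAHA (SE 0.22, edgeR adjusted p = 2.17e-05) and by 2.74 with TSA (SE 0.23, adjusted p = 4.02e-07). Rfx4, a transcription factor gene, stood at 15.6, 4.37 and 8.01 CPM in siP300, 12.8, 24.2 and 10.3 in siKat6b and 4.85, 0.632 and 5.96 in siComb (log2 -1.62, SE 0.40). It fell by 3.43 with SAHA (edgeR adjusted p = 0.000492) and by 3.31 with TSA (adjusted p = 0.000261). Hdac4, a class IIa histone deacetylase, stood at 37.7, 14.2 and 41.5 CPM, at 8.84, 18.7 and 13.9 and at 35.6, 12.6 and 27.3 in the same order (log2 -1.13, SE 0.23). It fell by 2.54 with TSA (edgeR adjusted p = 0.000191) and by 1.23 with SAHA (adjusted p = 0.0292), a call lost without Vehicle 1, Vehicle 2, SAHA 2 or SAHA 3. Lmnb1, which encodes lamin B1, stood at 22.4, 8.08 and 21.4 CPM in siP300, 31.9, 34.0 and 31.5 in siKat6b and 19.8, 4.01 and 17.8 in siComb, so its difference of -1.17 (SE 0.33) came mostly from siP300 2 and siComb 2, and was -0.71 without siComb 2. Csf1 (-1.39), Pacs2 (-1.33), Lyst (-1.31), Snx25 (-1.23), Ptprj (-1.17) and Plagl2 (-1.11) were the other named lower genes. For Csf1, a macrophage growth factor, the siKat6b libraries held only 0, 0.788 and 0 CPM.

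The other gene lists are read against the shares of all genes tested, 3.95% higher and 1.06% lower, and against a median of -0.01. Most of their counts are 0 to 2 genes and so near those shares. Of 38 DNA methylation and Polycomb genes tested, 2 were higher and none lower (median log2 -0.15). These 2 are single genes and give no direction to the list. Both are subunits of variant Polycomb complexes: Pcgf5 stood at 41.5, 70.8 and 28.9 CPM in siP300, 110.5, 40.4 and 90.9 in siKat6b and 35.2, 127 and 39.0 in siComb (log2 1.42, SE 0.20), and Pcgf1 differed by 1.36 (SE 0.23). Pcgf5 rose by 1.44 with SAHA (edgeR adjusted p = 0.00422) and 3.50 with TSA (adjusted p = 1.84e-06). Pcgf1 rose by 0.97 (edgeR adjusted p = 0.00265) and 1.00 (adjusted p = 0.000929). None of 36 retroelement silencing genes was higher or lower (median -0.02). Of 38 acetyltransferase and deacetylase genes none was higher by the rule and 1, Hdac4, was lower (median -0.18). Hdac9 differed by 2.47 (SE 0.56) but missed the rule, because siP300 3 (94.7 CPM) lay above siP300 2 (92.9). It stood at 26.1, 1.77 and 12.4 CPM in siKat6b and 15.9, 90.8 and 5.14 in siComb.

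Counts in the lineage lists were as small: 2 of 42 trophectoderm genes were higher and none lower (median -0.11), 2 of 32 pluripotency genes were higher and none lower (-0.11) and none of 21 primitive endoderm genes was higher and 2 were lower (-0.23). The higher trophectoderm genes were the homeobox genes Esx1 (log2 1.47) and Rhox6 (2.29), and the higher pluripotency genes Klf17 and Prdm14 (1.23). Of 30 maternal oocyte genes, 2 were higher, Zar1l (2.07) and Npm2 (1.76), and 1 lower, with a median of 0.33. Of 36 germline genes 1, the RNA helicase gene Ddx4, was higher (log2 1.04, median of the list -0.01). The integrated stress response list had 1 of 28 higher, Nupr1 (1.84), with a median of 0.21, and the p53 target list 1 of 31, Fas (1.55), with a median of 0.05. The cell cycle list had 1 higher and 1 lower of 47 (median -0.08). No gene passed the rule among 28 apoptosis, 23 interferon response, 20 heat shock or 28 imprinted genes, with medians of -0.03, 0.10, -0.03 and -0.23. Glycolysis genes and the 14 mitochondrial genes gave no call either, with medians of 0.07 and -0.04.

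Markers of other cells that a pool could carry overlapped in summed level between the sides. The 3 tested cumulus cell markers summed to 3.93 to 21.7 CPM in the high and 5.12 to 23.0 in the low libraries, against 2.96 to 4.06 in siControl, with a median log2 difference of -0.21 and 1 of 3 positive. The 2 oviduct markers summed to 3.10 to 5.48 and 3.15 to 10.9 CPM, against 2.08 to 2.61 (median -0.36, 1 of 2 positive). The 4 tested blood markers summed to 21.6 to 299 CPM in the high and 13.1 to 223 in the low libraries, against 10.3 to 19.4, with Hbb-bs and Hbb-bt at 0 in all 9 libraries and none of the 4 higher or lower by the rule. All 4 had a positive difference, with a median of 0.60. Hba-a1, an alpha globin gene, stood at 33.5, 118 and 93.9 CPM in siP300, 1.47, 2.76 and 26.7 in siKat6b and 26.3, 69.0 and 61.4 in siComb, against at most 1.16 in siControl. Its high library exceeded both low ones in siP300 and siComb but not every time in siKat6b (log2 1.22, SE 0.60). Of 6 Y-linked genes 1, Kdm5d, was lower (log2 -1.27), and all 6 differences were negative, with a median of -0.56. The part of these markers in the gene differences was not tested.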

How the data were processed

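Each of the 27 libraries had raw counts for 55367 genes and 2 MERVL rows, as the authors deposited them. The submitters' processing notes list the tools STAR 2.7.11a, featureCounts, Subread 2.0.6, MultiQC and Scanpy 1.8.2, as well as the builds mm10 and GRCh38, with no role for either. Strand setting, read pairs, annotation release and the counting of MERVL are steps not given in the sources used here. Among the nonzero deposited counts 83.3 to 85.9% per library were even, so intervals based on counting could be too narrow and bounds on fold changes too high. No replicate pair was a duplicate: the chi-square per degree of freedom was at least 8.35 over 27 pairs.

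Groups came from the sample titles and the MERVL split from the counts. CPM values of single libraries use the total of the gene counts, without further scaling. The split was fitted with edgeR 4.0.16 (R 4.3.3, TMM scaling, filterByExpr with a minimum count of 10) over the 9 libraries with the siRNA group as a block, and only fold changes and standard errors were used. SAHA and TSA against Vehicle were fitted over the 12 libraries of the inhibitor family, and siRNA groups against siControl over the 15 libraries of the siRNA family, with quasi-likelihood tests at an adjusted p of 0.05. Libraries held 7557591 to 11988857 counts.

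Named genes were Ep300, Crebbp, Kat6a, Kat6b and the MERVL rows, then the 15 largest differences above and the 10 largest below with a mean of at least 10 CPM on the higher side and groups separated, unnamed gene models left out. Up to 4 genes per list followed (12 for the 2-cell list), not all of them written out. The members, the lists and the rules were chosen with earlier results of these data known. Positions are GENCODE's and promoters RefSeq's, both on GRCm38. Alternatives were DESeq2 1.42.0, its size factors, library size alone, other filters, a replicate block, all 15 siRNA libraries, the sample files and leaving out each library. The fits were tested on simulated data. Python 3.11.15, pandas 2.3.3, numpy 2.4.6 and matplotlib 3.10.9 made the tables and figures.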

Additional observations from a re-analysis of the deposited data

Results flagged for a closer look

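For 9 of the named genes every high library lay on one side of every low library in 1 siRNA group and on the opposite side in at least 1 other. In the remaining group the sides could overlap, as for Hand1 and Tdrd12 in siP300 and mt-Cytb in siKat6b. The difference between groups was not tested, and each group has 1 library on one side and 2 on the other. Values are log2 ratios of high over low with 0.5 CPM added. In siComb, Dppa2 (-0.42), the trophectoderm factor gene Hand1 (-0.20) and Lefty1 (-1.18), an inhibitor of Nodal, were lower in the high library. In siP300, the oocyte kinase gene Wee2 (-0.67) and mt-Cytb (-0.32) were lower and the Polycomb gene Phf19 (0.60) was higher in the high library. In siKat6b, Casp8 (-0.63) and the germline gene Tdrd12 (-0.14) were lower and Xist (0.50), the RNA of X inactivation, was higher in the high libraries. Some of these RNAs were scarce, so counting error enters their ratios. Casp8 stood at 0, 0.591 and 0.414 CPM in siKat6b and Lefty1 at 1.82, 0.211 and 0.411 in siComb. Wee2 reached at most 2.17 CPM and Phf19 at most 2.63 in the siP300, siKat6b and siComb libraries.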

How the results depend on the processing

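The counts of 733 higher and 196 lower genes were 733 and 196 with DESeq2 size factors, 712 and 216 with library size alone, 754 and 200 over all 15 siRNA libraries, 735 and 196 with DESeq2 fold changes and 734 and 196 with the replicate block, which shared 706 and 178 genes with the counts as reported. A mean of at least 5 CPM left 344 and 37, and no filter gave 966 and 261. Leaving out 1 library gave 859 to 1305 higher and 248 to 667 lower genes, because fewer libraries then had to be separated: without siP300 2, siKat6b 2 or siComb 2 the counts were 1210, 1305 and 1188 higher, and 434, 667 and 588 lower. Without siKat6b 3, siComb 1 or siComb 3, 346, 304 and 295 were lower. Members that rose numbered 500 to 558 with SAHA and 572 to 602 with TSA over the alternatives tried. All calls with SAHA were 4693 to 5227 and with TSA 9651 to 9966 when 1 library was left out, siP300 4715 to 6504 and siComb 5222 to 6831. siKat6a kept 0 calls in each such fit and gave 15 without the filter and 1 with DESeq2. siKat6b had 4 calls, against 2 with DESeq2 size factors, 755 without the filter, 237 with DESeq2 and 1 to 161 with 1 library left out, the 161 being without siKat6b 2. The cause of these shifts was not tested. With the replicate block siKat6b had 2 calls, SAHA 6184 and TSA 10525. Deviations of samples with the same number had a mean correlation of -0.03 (-0.35 to 0.36) over 30 pairs of the siRNA family. Over 18 pairs of the inhibitor family the mean was 0.03 (-0.04 to 0.15). Such correlations cannot show whether pools of the same number were collected together. Of the printed SAHA and TSA tests, 3 values turned sign, for Obox6 with TSA (-0.18 to 0.56 with 1 library left out) and for Obox8 with SAHA (-2.45 to 5.71). Depth limits Duxf3 and other genes with a few counts per library.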
